A study of Mus musculus with 4 samples.

Results

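The genes described here are the D-type cyclins, the cyclin-dependent kinases (CDKs) they activate, the inhibitors of those kinases and the retinoblastoma protein, the machinery that lets a cell leave the G1 phase of the cell cycle. They were chosen by name: Ccnd2, Ccnd3, Cdk4, Cdk6, Cdkn1a, Cdkn1b, Cdkn2a, Cdkn2c, Cdkn2d and Rb1, all 10 of which were found among the 56239 genes of the count table. A filter on low counts left 15070 genes for testing, 9 of these 10 among them. Cdkn2a did not pass it. RNA-seq was done on sorted thymocytes of C57BL/6 mice that carry both CD4 and CD8, the double-positive (DP) stage. The 2 WT libraries came from mice with floxed Chaf1b alleles and no Cre. The 2 KO libraries came from mice with the same floxed alleles and the Cd4-cre transgene, in which Cre recombinase is made under Cd4 control, so Chaf1b is lost in cells that have switched on Cd4. Both groups thus carry floxed alleles, and only KO carries Cre. Chaf1b encodes a subunit of chromatin assembly factor 1, which deposits histones on newly copied DNA.

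A cell in G1 makes D-type cyclins in response to outside signals, and these activate CDK4 and CDK6, which phosphorylate the retinoblastoma protein RB1. Phosphorylated RB1 releases the E2F transcription factors that switch on the genes of DNA replication. INK4 inhibitors, encoded by the Cdkn2 genes, bind CDK4 and CDK6 themselves, while CIP/KIP inhibitors, encoded by the Cdkn1 genes, bind cyclin-CDK complexes. In the thymus, a burst of division that needs cyclin D3 carries cells into the DP stage, after which most DP cells stop dividing and rearrange their T cell receptor alpha genes.

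Library totals ran from 21068760 to 27369874 counts. How many mice a library holds is not given in the labels, so the spread that p-values rest on is that of the libraries and may be partly technical. In both genotypes replicate 1 expressed Xist and replicate 2 the Y-linked gene Ddx3y, so KO and WT could be compared within a female pair and a male pair. Levels are given as CPM, counts scaled to a common library size with TMM factors, and paired values are in the order replicate 1, replicate 2. Chaf1b was at 27.9 and 31.7 CPM in WT against 12.2 and 14.8 CPM in KO, lower in both KO libraries (log2 fold change -1.14, edgeR adjusted p = 0.267; -1.15 and 0.0172 in an edgeR fit with a term for sex). That term is the replicate number, so sex cannot be told apart in it from anything else that same-numbered libraries share. All 9 listed DP markers were detected, and their summed level was 14441 to 14703 CPM in WT and 15064 to 18403 CPM in KO. KO replicate 1 stood apart from the other libraries. Mitochondrially encoded genes took 3.30% of its counts, against 2.03% in KO replicate 2 and 1.33% to 1.45% in WT. The absolute difference from WT of the same sex was larger in the female than in the male pair for 73.3% of tested genes. For this reason the members' fold changes are also given without KO replicate 1.

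The member genes covered a wide range of levels in WT DP thymocytes. On the TPM scale, which divides counts by the exon length of the deposited table, Ccnd3 stood highest at 523 ± 9.996 TPM (SD, n = 2, as for all values with ± unless an SE is named). The CIP/KIP gene Cdkn1b followed at 428 ± 7.34 TPM and the INK4 gene Cdkn2d at 396 ± 5.21 TPM. These were the most abundant cyclin and inhibitor transcripts of the set, and the WT ranges of the 3 genes did not overlap. Cdkn2c at 135 ± 10.7 TPM and Cdk4 at 131 ± 5.51 TPM could not be ordered, since their WT ranges overlapped. Rb1 came next at 92.2 ± 5.51 TPM, then Cdk6 at 26.7 ± 4.29 TPM. Cdkn1a at 1.93 ± 0.433 TPM, Ccnd2 at 0.642 ± 0.0974 TPM and Cdkn2a at 0.499 ± 0.0599 TPM were the rarest. Ccnd3 was at percentile 98.4 of all tested genes by WT level, Cdkn1b at 97.96 and Cdkn2d at 97.7, while Cdkn1a was at percentile 15.2 and Ccnd2 at 4.94. TPM values are set by length, and the exon length of Ccnd3 (8775 bases) and Cdk6 (13989 bases) adds up the exons of many transcripts. With the mean length of coding transcripts in place of it, Ccnd3 was again highest, at 2277 ± 39.7 TPM, and Ccnd2 was at 1.396 ± 0.210 TPM. On that scale Cdk4 (179 ± 7.26 TPM) stood above Cdkn2c (105 ± 8.52 TPM) without overlap, and Cdk6 (62.4 ± 10.1 TPM) overlapped Rb1 (61.6 ± 3.78 TPM).

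**Figure D1:**
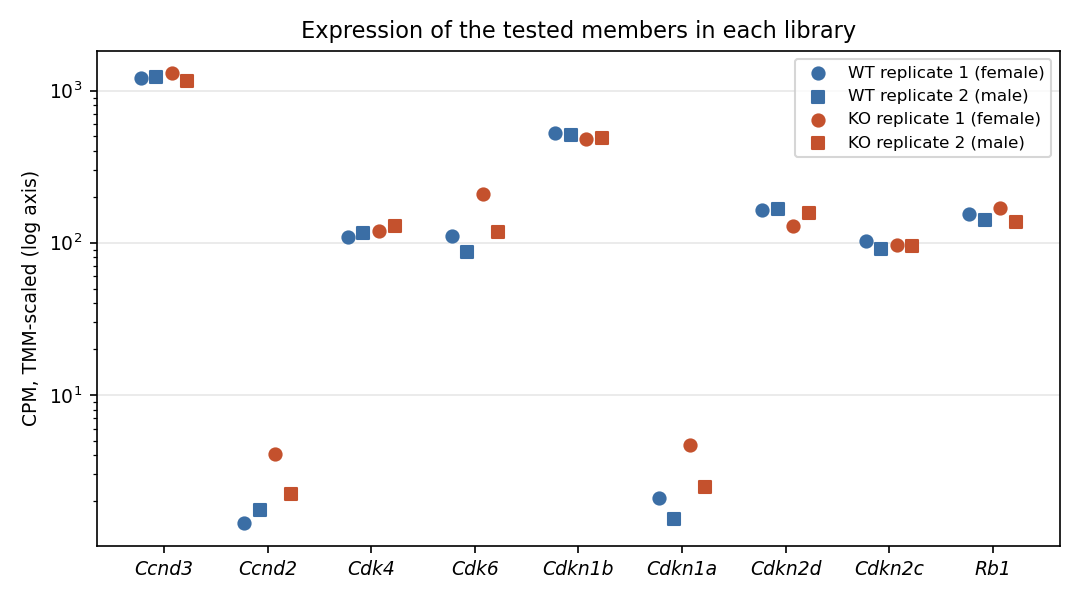
Expression of the 9 tested genes in each library, as CPM scaled by TMM factors on a log axis; circles are replicate 1 (female), squares replicate 2 (male), blue WT and orange KO. Ccnd3 lies at or above 1152 CPM in all 4 libraries, and KO replicate 1 is the highest library for Cdk6, Ccnd2 and Cdkn1a.

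Upstream sequences are shown for Ccnd3 and Cdk4, the most abundant cyclin and kinase transcripts of the set, for Cdk6, the member called in a fit below, and for Cdkn1a, the member closest to the p53 pathway. They come from RefSeq on GRCm38.p6, which held entries for 8 of the 10 genes, and run 5′ to 3′ on the plus strand, on which all 4 genes lie. Positions count back from the annotated start, at -1 for the base before it, and bases inside any exon of the deposited annotation were left out. The stretches are Ccnd3 at chr17:47504801-47505050, Cdk4 at chr10:127063285-127063533, Cdk6 at chr5:3343789-3343892 and Cdkn1a at chr17:29090729-29090975. For Cdk6 this RefSeq start lies inside the gene's deposited span. Capitals mark matches to motifs searched on both strands.
Ccnd3: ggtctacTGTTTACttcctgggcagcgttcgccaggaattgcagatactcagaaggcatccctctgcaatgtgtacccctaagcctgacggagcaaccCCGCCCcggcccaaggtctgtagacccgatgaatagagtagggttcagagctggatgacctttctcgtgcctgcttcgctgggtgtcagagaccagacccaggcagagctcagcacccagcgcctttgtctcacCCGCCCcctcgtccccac
Cdk4: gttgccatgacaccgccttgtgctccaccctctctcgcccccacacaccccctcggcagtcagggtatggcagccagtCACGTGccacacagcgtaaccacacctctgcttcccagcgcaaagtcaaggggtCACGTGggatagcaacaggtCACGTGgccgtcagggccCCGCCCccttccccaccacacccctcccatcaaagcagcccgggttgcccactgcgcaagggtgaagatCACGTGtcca
Cdk6: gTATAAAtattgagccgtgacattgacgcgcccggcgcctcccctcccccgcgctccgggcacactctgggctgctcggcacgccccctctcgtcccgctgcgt
Cdkn1a: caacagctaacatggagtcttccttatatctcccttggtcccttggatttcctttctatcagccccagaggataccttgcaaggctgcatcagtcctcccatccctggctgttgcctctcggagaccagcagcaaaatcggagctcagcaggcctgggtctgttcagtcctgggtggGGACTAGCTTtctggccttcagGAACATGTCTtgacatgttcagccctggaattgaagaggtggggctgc

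The Cdk4 stretch held 4 E-boxes (CACGTG, the kind of site that MYC-MAX dimers bind), from -172 to -6, and 1 GC box (GGGCGG). Of all 32851 promoter windows of 250 bases, 6.02% held at least 1 such E-box and 0.0213% held 4 or more. The Ccnd3 stretch held a forkhead site (TGTTTAC) at -243 to -237, found in 3.17% of windows, and 2 GC boxes, a number reached by 16.7% of windows. Another annotated Ccnd3 start, with its window at chr17:47593217-47593466, is not printed. It had 0 forkhead sites, 1 GC box and 1 CCAAT box. In Cdk6 a TATA box (TATAAA) lay at -103 to -98, as in 12.4% of windows, and an E-box lay outside the printed stretch at -220 to -215. The Cdkn1a stretch held 2 matches to the p53 half-site consensus, at -73 to -64 and -51 to -42. At least 2 such matches were present in 0.259% of windows. Another annotated Cdkn1a start, with its window at chr17:29093519-29093768, had 0 such matches and 2 GC boxes. All 250 bases of that window lie in deposited exons, so it is not printed. None of these matches overlapped another. None of 3 spellings of the E2F site (TTTCGCGC, TTTGGCGC and TTCCCGCC) was present in any member's window, and 2.48% of all windows held at least 1 of them. These are matches of letters in a short window only.

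Most of these transcripts were not called different between KO and WT, and the largest fitted differences were those of Cdkn1a, Ccnd2 and Cdk6. In edgeR's quasi-likelihood test of KO against WT, adjusted over all genes by Benjamini-Hochberg, 0 of the 9 passed an adjusted p of 0.05. Of all tested genes 0.00664% (1 gene, higher in KO) passed. At an unadjusted p under 0.05, 2 of the 9 were higher (Cdk6 and Ccnd2) and 0 lower, against 8.14% of all genes higher and 8.69% lower, 16.8% in all. Limma-voom called 0 of the 9 and 0.00664% of all genes, and DESeq2 called 0 of the 9 and 4.59% of all genes (1.85% higher, 2.73% lower). With sex as a term in the edgeR fit, 1 of the 9 was higher, Cdk6, and 0 lower, where 1.01% of all genes passed as higher and 2.2% as lower, 3.21% in all. In 6 of the 9 genes the CPM of the KO libraries lay outside the range of the WT libraries, 4 above and 2 below, against 27.9% of all tested genes above and 28.4% below, 56.3% in all. The median log2 fold change of the 9 was 0.05, against -0.0026 over all tested genes. The log2 fold change was beyond 0.5 in either direction in 3 of the 9 genes, namely Cdk6, Ccnd2 and Cdkn1a, and in 23.5% of all genes. These are levels in bulk RNA, in which fewer cells expressing a gene and less RNA per cell cannot be told apart.

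**Figure D2:**
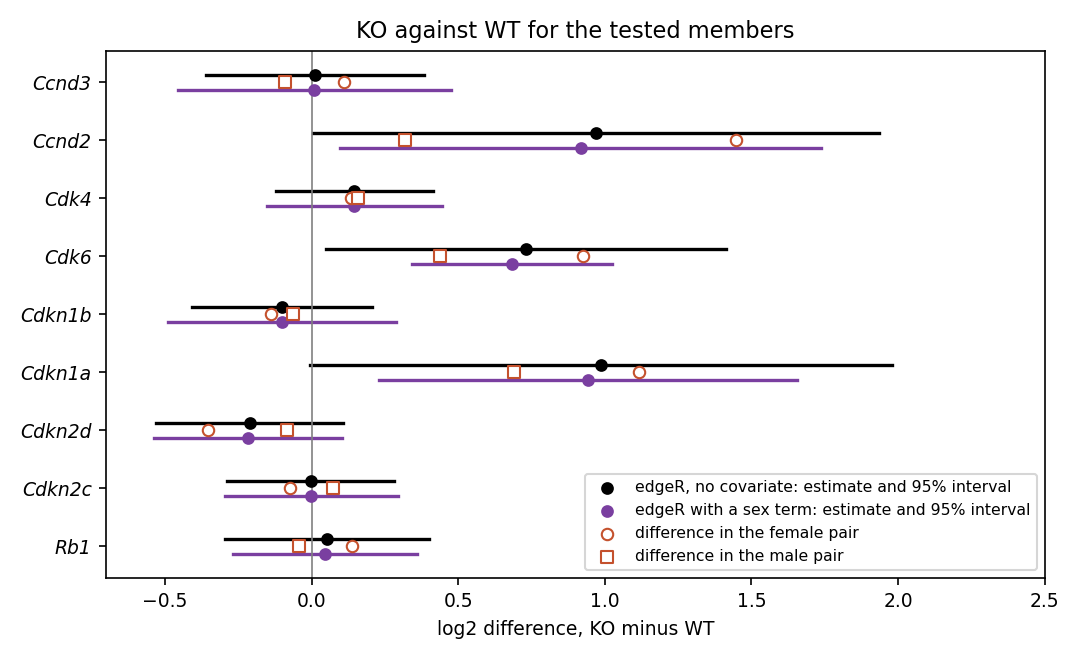
Log2 difference, KO minus WT, for the 9 tested genes; filled points with bars are edgeR estimates with 95% intervals, without a covariate (black) and with a sex term (purple), and open symbols are differences within the female (circle) and male (square) pair. Cdk6, Ccnd2 and Cdkn1a lie to the right of 0 in both pairs, with the larger difference in the female pair.

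Among the D cyclins, Ccnd3 (ENSMUSG00000034165, chromosome 17, 47505051 to 47599691, GRCm38, as for all coordinates) made up nearly the whole family. Cyclin D3 is the form needed for the division of thymocytes after the pre-T cell receptor signal. Ccnd3 was at 1205 and 1227 CPM in WT and, in KO, at 1300 CPM in replicate 1 and 1152 CPM in replicate 2. The KO values enclosed the WT values, so the groups overlapped. The fitted difference on the log2 scale was 0.01 ± 0.15 (SE; edgeR adjusted p = 0.972), with a 95% interval of -0.36 to 0.38, so the data bound a change of Ccnd3 to between 0.779-fold and 1.31-fold. Leaving out KO replicate 1 gave -0.07. Within each library Ccnd3 took 99.7% of the summed TPM of Ccnd1, Ccnd2 and Ccnd3 in both WT libraries, and 99.5% in both KO libraries.

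Ccnd2 (ENSMUSG00000000184, chromosome 6, 127125162 to 127152193) encodes cyclin D2, the form used by many lymphocytes on activation. It had 34 and 50 counts in WT against 92 and 48 in KO, which scale to 1.43 and 1.76 CPM against 4.06 and 2.22 CPM. Both KO values lay above both WT values once scaled, with KO replicate 1 far above the other 3 libraries. The log2 fold change was 0.97 ± 0.39 (SE; edgeR adjusted p = 0.296, and 0.188 with the sex term). The female libraries differed by 1.45 and the male libraries by 0.32. Leaving out KO replicate 1 gave 0.47, and leaving out KO replicate 2 gave 1.33. The share of Ccnd2 in the D cyclins was 0.111% and 0.134% in WT against 0.289% and 0.179% in KO, so that even the highest share was a small part of the family. Ccnd1, the remaining D cyclin, had 30 to 37 counts in every library.

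The kinase genes differed from each other. Cdk6 (ENSMUSG00000040274, chromosome 5, 3341485 to 3531008) rose in KO in the edgeR fit with the sex term, whereas Cdk4 (ENSMUSG00000006728, chromosome 10, 127063534 to 127067920) did not pass in either fit. Cdk6 had 2625 and 2478 counts in WT against 4771 and 2559 in KO. Scaled, the WT libraries held 111 and 87.4 CPM and the KO libraries 210 and 118 CPM, or 99.1 ± 16.5 against 164 ± 65.0 CPM. Both KO libraries lay above both WT libraries, but KO replicate 2 was close to WT replicate 1. Without a covariate the log2 fold change was 0.73 ± 0.28 (SE; edgeR adjusted p = 0.285). With the sex term it was 0.68 ± 0.16 (SE; edgeR adjusted p = 0.0413), a fold of 1.61 with a 95% interval of 1.27 to 2.03. The call was lost when that fit was scaled by library totals in place of TMM factors (0.60, edgeR adjusted p = 0.0682). The female libraries differed by 0.92 and the male libraries by 0.44. The size of the Cdk6 difference rested on KO replicate 1: without that library the log2 fold change was 0.26, and without KO replicate 2 it was 1.08.

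In WT, Cdk4 was at 110 CPM in replicate 1 and 115 CPM in replicate 2, against 120 and 129 CPM in KO. The groups did not overlap, and the female pair differed by 0.13 and the male pair by 0.16 on the log2 scale. Cdk4 was the only one of the 9 with the larger absolute difference in the male pair. Its fitted change of 0.15 ± 0.11 (SE, log2) missed the threshold (edgeR adjusted p = 0.502), with a 95% interval of -0.12 to 0.41, and was 0.20 without KO replicate 1. About 19.7% of the Cdk4 exon bases overlap Tspan31 on the other strand, so fragments lying in both genes were left out of the counts. Within a library Cdk6 made up 19.0% and 14.98% of the summed TPM of both kinases in WT, against 28.9% and 17.6% in KO. WT replicate 1 lay above KO replicate 2, so the shares overlapped between the genotypes.

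**Figure D3:**
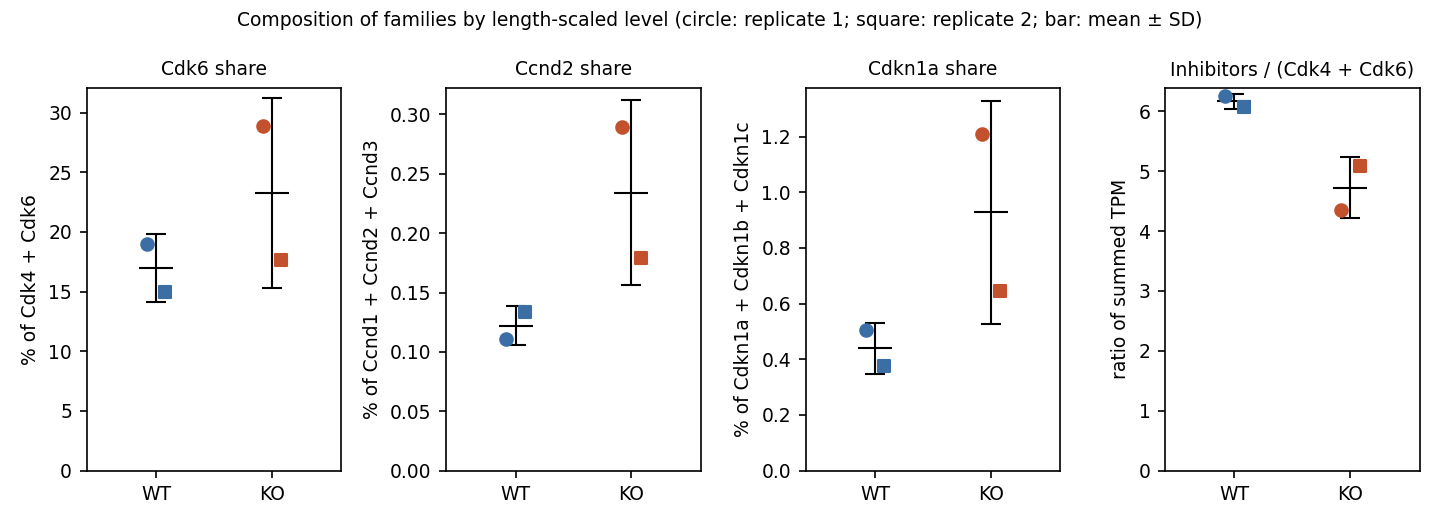
Composition within each library by TPM: the share of Cdk6 in Cdk4 plus Cdk6, of Ccnd2 in the D cyclins and of Cdkn1a in the CIP/KIP inhibitors (percent), and the ratio of all summed INK4 and CIP/KIP inhibitors to Cdk4 plus Cdk6; circles are replicate 1, squares replicate 2, bars mean ± SD (n = 2). The Ccnd2 and Cdkn1a shares and the ratio separate KO from WT, and the Cdk6 share overlaps between them.

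Markers of dividing cells also had their highest sum in KO replicate 1. The summed level of 5 such markers (Mki67, Top2a, Ccnb1, Ccna2 and Cdk1) was 1923 and 1782 CPM in WT against 3243 and 1995 CPM in KO. Mki67, a marker of cycling cells, was the most abundant of the 5, at 1862 CPM in KO replicate 1 and 792 to 953 CPM elsewhere. Cdk1, the mitotic kinase, was lower in both KO libraries, at 46.9 and 49.5 CPM against 59.3 and 59.97 CPM. The 5 markers of double-negative thymocytes and progenitors, an earlier stage, summed to 16.7 to 18.9 CPM in WT and 23.7 to 31.7 in KO. In 1 of these 5, Il2ra, both KO libraries lay above WT and in 0 below, against 27.9% and 28.4% of all tested genes. Cd44 was at 13.7 CPM in KO replicate 1 against 3.25 to 5.95 CPM elsewhere. Its value in KO replicate 2 lay between the WT values. In 2 of the 5 markers of dividing cells both KO libraries lay above WT and in 1 below, against 27.9% and 28.4% of all tested genes. The fit with the sex term called none of the 5 and 3.21% of all genes. The 6 markers of mature single-positive thymocytes summed to 354 to 373 CPM in WT and 407 to 442 CPM in KO, and the 5 of NK and gamma-delta T cells to 93.9 to 112 CPM and 122 to 154 CPM, with the NK receptor gene Ncr1 at 0 throughout. In 4 of those 5 both KO libraries lay above WT, against 27.9% of all tested genes, though only 3 of the 5 passed the filter. Among the 4 was Klrb1c, with 0 counts in each WT library and 1 and 8 in KO. The fit with the sex term called 1 higher, Gzma, and 1.01% of all genes higher. Gzma, a granule protease of cytotoxic cells, was at 22.4 and 17.6 CPM in WT against 54.5 and 31.2 CPM in KO. The 5 B cell markers summed to 407 to 473 CPM in WT and 463 to 464 CPM in KO, while the 6 of macrophages and granulocytes, the 4 of dendritic cells and the 6 of thymic epithelium each summed to at most 10.002 CPM in every library. S100a8, Elane and Cd209a, which mark the first and second of those lineages, were at 0 in all 4 libraries. The part of such cells, of mitochondrial content or of KO replicate 1 as a library in the Cdk6, Ccnd2 and Cdkn1a values was not tested.

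By profile over the 4 libraries, the genes most like Cdk6 were Gfod1, Hivep2 and Nup98. Likeness was the Euclidean distance between log2 CPM profiles centred on their own means, among 9946 other genes with a mean of at least 5 CPM, and the distances were 0.0852, 0.129 and 0.135. Hivep2, for example, held 207 and 184 CPM in WT against 427 and 228 CPM in KO. In all, 29 genes lay within 0.2 of Cdk6.

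The INK4 inhibitors of DP cells were p19Ink4d and p18Ink4c, encoded by Cdkn2d and Cdkn2c. Cdkn2d (ENSMUSG00000096472, chromosome 9, 21288410 to 21291407) was at 164 and 166 CPM in WT against 129 and 157 CPM in KO. Both KO values lay below the WT values, and KO replicate 1 was the lower. Its log2 fold change was -0.21 ± 0.13 (SE; edgeR adjusted p = 0.422). The female libraries differed by -0.35 and the male libraries by -0.08. Without KO replicate 1 the change was -0.07, and without KO replicate 2 it was -0.36. Cdkn2c (ENSMUSG00000028551, chromosome 4, 109660876 to 109667189) was at 102 and 90.5 CPM in WT against 97.0 and 95.2 CPM in KO. The KO values lay between the WT values. Its 95% interval of -0.29 to 0.28 on the log2 scale (edgeR adjusted p = 0.992) bounds a change to between 0.820-fold and 1.22-fold, and the fold change without KO replicate 1 was -0.01 on that scale.

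Cdkn2a (ENSMUSG00000044303, chromosome 4, 89274471 to 89294653) encodes both p16Ink4a, a CDK inhibitor, and p19Arf, which protects p53 from MDM2. These proteins come from different first exons that share later exons, and a count per gene does not separate them. The gene had 4 counts in each WT library, 2 in KO replicate 1 and 0 in KO replicate 2. A count of 0 allows up to 3 counts, or 0.139 CPM in that library. The levels were too low for a comparison, and no fold is given. Its neighbour Cdkn2b, another INK4 gene, had a single count over all libraries, 1 in KO replicate 2. Within the INK4 family Cdkn2d took 73.2% and 75.7% of the summed TPM in WT and 69.3% and 73.7% in KO, and Cdkn2c nearly all of the rest.

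The CIP/KIP family consisted almost wholly of Cdkn1b. Cdkn1b (ENSMUSG00000003031, chromosome 6, 134920401 to 134925513) encodes p27Kip1, which holds resting lymphocytes out of the cycle. It was at 525 and 508 CPM in WT against 477 and 486 CPM in KO. Both KO values lay just below both WT values. A log2 fold change of -0.10 ± 0.13 was fitted (SE; edgeR adjusted p = 0.691), with a 95% interval of -0.41 to 0.21, and -0.08 without KO replicate 1. Cdkn1b took 97.98% and 97.9% of the family's TPM in WT and 96.4% and 97.8% in KO.

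Cdkn1a (ENSMUSG00000023067, chromosome 17, 29090976 to 29100727) encodes p21Cip1, the inhibitor that p53 induces after DNA damage. It had 50 and 43 counts in WT against 106 and 54 in KO, which scale to 2.11 and 1.52 CPM against 4.67 and 2.499 CPM. Both KO libraries lay above both WT libraries, with KO replicate 2 close to WT replicate 1. The log2 fold change was 0.99 ± 0.41 (SE; edgeR adjusted p = 0.299, and 0.129 with the sex term). The female libraries differed by 1.12 and the male libraries by 0.69. Without KO replicate 1 the change was 0.47, and without KO replicate 2 it was 1.37. Its share of the CIP/KIP family was 0.505% and 0.375% in WT and 1.21% and 0.645% in KO, so the KO shares were higher but Cdkn1b outnumbered it in every library. Of its exon bases 7.68% overlap a gene on the other strand. The p53 gene Trp53 was at 124 and 122 CPM in WT against 96.2 and 121 CPM in KO. Mdm2, another p53 target, was at 197 and 194 CPM against 140 and 177 CPM. Neither passed edgeR's threshold (adjusted p = 0.525 and 0.322).

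Rb1 (ENSMUSG00000022105, chromosome 14, 73183673 to 73325822) encodes the protein that the D cyclin kinases phosphorylate. It was at 154 and 140 CPM in WT against 169 and 136 CPM in KO, with the KO values enclosing the WT values. Its fitted log2 fold change was 0.05 ± 0.14 (SE; edgeR adjusted p = 0.864), with a 95% interval of -0.29 to 0.40, and -0.11 without KO replicate 1. Exons of Lpar6 and Rcbtb2 on the other strand overlap 14.9% of its exon bases. Rb1 took 41.4 ± 2.48% of the summed TPM of the pocket proteins in WT and 40.1 ± 3.18% in KO. Its relatives Rbl1 (p107) and Rbl2 (p130), which hold E2F sites silent in resting cells, shared the rest, at 28.2 ± 0.533% and 30.4 ± 1.94% in WT. Rbl2 was at 130.02 and 141 CPM in WT against 164 and 149 CPM in KO, which edgeR did not call (0.21 on the log2 scale, adjusted p = 0.384).

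Relative to the kinases, inhibitor transcripts had lower values in both KO libraries. The summed TPM of all INK4 and CIP/KIP genes was 6.25 and 6.07 times that of Cdk4 plus Cdk6 in WT against 4.36 and 5.08 times in KO. Both KO ratios lay below both WT ratios, with KO replicate 1 lowest. The D cyclins stood at 3.31 and 3.36 times the kinases in WT and 2.86 and 2.75 times in KO, also without overlap. A ratio within a library does not depend on library scaling but does depend on the gene lengths used, and no test was made of it. With the mean length of coding transcripts the inhibitors averaged 3.10 times the kinases in WT and 2.30 times in KO, and the D cyclins stood at 9.24 and 9.63 times in WT against 7.53 and 7.73 times in KO.

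Of the other G1 partners, such as cyclin E, CDK2 and the ubiquitin ligase subunits that remove p27, 20 of 21 were tested. None passed edgeR's threshold with or without the sex term, and limma-voom called 0. At an unadjusted p under 0.05 edgeR had 2 higher and 1 lower, against 8.14% and 8.69% of all genes. In 6 of the 20 both KO libraries lay above both WT libraries and in 6 below, against 27.9% and 28.4% of all tested genes. DESeq2 called 4.59% of all genes and 1 of these 20. That gene was Cdk2, the partner of cyclin E, named here after its values were seen. Cdk2 was at 197 and 200 CPM in WT against 109 and 152 CPM in KO, without overlap. EdgeR gave a log2 fold change of -0.61 (adjusted p = 0.267, and 0.0527 with the sex term). DESeq2 gave it an adjusted p of 0.0420. Without KO replicate 1 the log2 fold change of Cdk2 was -0.39. The cyclin E genes Ccne1 (-0.14) and Ccne2 (0.14) did not pass. The most highly expressed partners per length were Skp1a, a subunit of SCF ubiquitin ligases, with a log2 fold change of 0.46, and Cdc37, the chaperone that loads CDK4, with 0.17. Their edgeR adjusted p were 0.289 and 0.512.

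None of the 10 E2F and DP factors passed edgeR's threshold in either fit, and limma-voom called 0. At an unadjusted p under 0.05 edgeR had 0 higher and 1 lower, against 8.14% and 8.69% of all genes. The median log2 fold change of the 10 was -0.19. In 5 of the 10 both KO libraries lay below both WT libraries and in 0 of the 10 above, where 28.4% and 27.9% of all tested genes did so. E2f2, an activating E2F and the most abundant here, was at 597 and 605 CPM in WT against 615 and 501 CPM in KO. E2f4, the repressor that works with the pocket proteins in resting cells, was at 231 and 218 CPM in WT against 132 and 168 CPM in KO. Its log2 fold change was -0.58 (edgeR adjusted p = 0.267, and 0.0646 with the sex term), DESeq2 gave it an adjusted p of 0.0322, and without KO replicate 1 edgeR gave -0.41. The DREAM complex represses cell cycle genes with E2F4 and the pocket proteins. None of the 7 genes listed for DREAM and MuvB, with Mybl1 and Mybl2 among them, passed edgeR in either fit, limma-voom or DESeq2. At an unadjusted p under 0.05 edgeR had 0 higher and 1 lower, against 8.14% and 8.69% of all genes. In 1 of the 7 both KO libraries lay above both WT libraries and in 3 below, against 27.9% and 28.4% of all tested genes. Rbbp4 had a log2 fold change of 0.13 and Lin37 one of -0.46.

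Among 28 genes that E2F factors switch on for DNA replication, the edgeR fit with the sex term called 1 higher, Pola1, and 0 lower. The fit without it called 0, with 6 higher and 0 lower at an unadjusted p under 0.05 (8.14% and 8.69% of all genes). The fit with the term called 1.01% of all genes higher and 2.2% lower. Limma-voom called 0, and DESeq2 called 1 higher, also Pola1, where it called 1.85% of all genes higher. Pola1, which encodes the polymerase subunit that starts new DNA strands with primase, rose from 41.5 and 40.003 CPM in WT to 73.2 and 54.6 CPM in KO (log2 fold change 0.64 with the sex term, edgeR adjusted p = 0.0425). Without KO replicate 1 its log2 fold change was 0.43. In 13 of the 28 both KO libraries lay above both WT libraries and in 5 below, where 27.9% and 28.4% of all tested genes did so. The median log2 fold change of the list was 0.10.

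Of 23 regulators of the inhibitors and D cyclins, the edgeR fit with the sex term called 1 higher and 2 lower. The fit without it called 0, with 3 higher and 5 lower at an unadjusted p under 0.05, and limma-voom called 0. Of all tested genes, 1.01% were called higher and 2.2% lower with the term, and 8.14% and 8.69% at an unadjusted p without it. In 7 of the 23 both KO libraries lay above both WT libraries and in 10 below, against 27.9% and 28.4% of all tested genes. Foxo1, a factor of resting cells that activates Cdkn1b, rose from 52.2 and 47.6 CPM in WT to 107 and 61.2 CPM in KO (0.70 with the sex term, edgeR adjusted p = 0.0442). Cbx7, a Polycomb protein that represses Cdkn2a, fell from 89.3 and 99.8 CPM to 37.0 and 69.5 CPM (-0.89, edgeR adjusted p = 0.0274). Dmtf1, an activator of the Arf transcript of Cdkn2a, fell from 196 and 189 CPM to 108 and 141 CPM (-0.64, edgeR adjusted p = 0.0494). KO replicate 1 was the more extreme library for each of these genes. With library totals in the fit with the sex term, Cbx7 was still called (-0.97, edgeR adjusted p = 0.0477), while Foxo1, Dmtf1 and Pola1 were not. Without KO replicate 1 the log2 fold change of Dmtf1 was -0.44. On the log2 scale the female libraries differed by 1.04 for Foxo1, -1.27 for Cbx7 and -0.86 for Dmtf1. The male libraries differed less, by 0.36, -0.52 and -0.42 in the same order. DESeq2 called 1 higher (Notch1, 0.70) and 2 lower (Cbx7 and Dmtf1) of the list, against 1.85% and 2.73% of all genes. Their targets in the INK4 and CIP/KIP families, Cdkn2a and Cdkn1b, had the values given above.

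**Figure D4:**
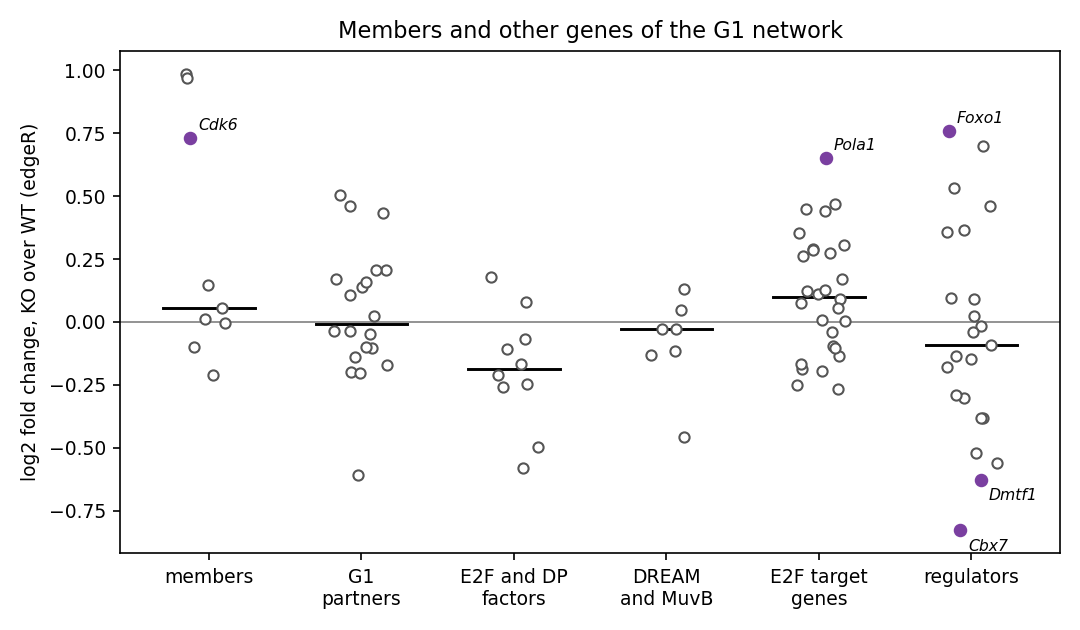
Log2 fold change, KO over WT, from edgeR without a covariate, for the 9 tested members and the other genes of the G1 network; each point is a gene, black lines are medians, and filled purple points passed an adjusted p of 0.05 in the fit with a sex term. The medians of the other groups lie between -0.19 and 0.10, with Pola1, Foxo1, Cbx7 and Dmtf1 as the genes called.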

How the data were processed

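RNA-seq libraries from sorted DP thymocytes were compared, 2 WT against 2 KO, grouped by the sample titles. Poly(A) RNA was made into libraries with the NEBNext Ultra RNA kit, per the labels' protocols, which does not mark strand. Tools listed by the submitters' processing notes are HISAT2, DESeq2, FastQC, featureCounts 1.6.4 and Trim Galore 0.5.0, with the build GRCm38. The deposited table holds raw counts of fragments, made by the authors with featureCounts 1.6.3 over Ensembl 98 exons per the file headers, without strand and without multi-mapped or multi-gene fragments. Symbols came from GENCODE M21 (55154 IDs, 98.1%).

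From these counts, edgeR 4.0.16 in R 4.3.3 kept 15070 genes (filterByExpr), scaled with TMM and tested KO minus WT with the quasi-likelihood F test and Benjamini-Hochberg adjustment, with no covariate and 2 residual degrees of freedom. A second edgeR fit had the replicate number, which separates the sexes, as a term and left 1. CPM are scaled by TMM; within-pair differences use log2 CPM with a prior count of 2; intervals are estimates ± the t quantile times the SE. TPM used the deposited exon length, and is compared only within WT or as a ratio within a library. limma-voom 3.58.1, DESeq2 1.42.0, other scalings, no filter and each library left out were alternatives. The edgeR step was tested on simulated counts. These had no replicate effect and no library set apart, so that test does not bear on either. A count of 0 allows 3 counts, or 0.106 to 0.139 CPM.

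Members and gene lists were chosen with earlier results of these data known. Every member is named; list genes are named where they passed either edgeR fit, or, in a list where none did, the 2 most abundant per length, and the family partners used in the shares are named too. Cdk2, Notch1, Gzma, Il2ra, the other marker genes given with values, Trp53, Mdm2, Ccne1 and Ccne2 were named after their values were seen.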

Additional observations from a re-analysis of the deposited data

Results flagged for a closer look

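KO and WT differed in opposite directions in the female and male pairs for 3 of the 9 genes. Each pair is 1 KO against 1 WT library, so these differences were not tested. For Ccnd3 the log2 difference, KO minus WT, was 0.11 between the female libraries and -0.0904 between the male libraries. For Rb1 these were 0.14 and -0.0435, and for Cdkn2c -0.0746 and 0.0738.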

How the results depend on the processing

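Of 126 recomputed log2 fold changes of the 9 members, 106 kept direction and side of the threshold, 7 passed it where the reported fit did not, and 13 changed sign, all of Ccnd3, Cdkn2c or Rb1, whose values are near 0. With the replicate block, which is the fit with the sex term, 1 member (Cdk6) was higher, 2 other G1 genes were higher and 2 lower, and 152 of all genes were higher and 331 lower. The labels do not tie same-numbered libraries, but their deviations from the group means correlated at 0.472 over tested genes. Added after seeing the data, the replicate block with library totals called 0 members (Cdk6 0.60, edgeR adjusted p = 0.0682), 1 other G1 gene lower, and 26 genes higher and 119 lower. With TMM without mitochondrial and ribosomal protein genes it called 1 member (Cdk6), 2 other G1 genes higher and 3 lower, and 216 and 441 genes. Without a filter, edgeR called 1 member (Cdk6), 7 and 5 other G1 genes, and 627 and 838 genes. DESeq2 called 2 and 4 other G1 genes, and 210 and 310 genes. Leaving out 1 library in turn gave 0 to 3 members higher and 0 to 1 lower, 0 to 19 and 0 to 18 other G1 genes, and 1 to 2518 and 0 to 2630 genes. The highest values came without KO replicate 2 and the 1-library arm is assumed to vary like the other. The fit with the sex term has no residual degrees of freedom once a library is removed. The log2 fold change of Cdkn2c was 0.0024 with RLE size factors, 0.0011 with TMM without mitochondrial and ribosomal protein genes and 0.0035 with that scaling in the block, and -0.0856 to 0.0879 with a library left out. That of Ccnd3 was -0.0738 with library totals, -0.0736 with library totals in the block, and -0.0727 to 0.0926 with a library left out. That of Rb1 was -0.0357, -0.0368 and -0.108 to 0.199 in the same order. Library totals shifted the median log2 fold change of all genes by -0.0813, which bears on those signs; for the others the cause was not tested. With the length of coding transcripts, Ccnd3 made up 99.9% of D cyclins in WT and 99.8% in KO, Cdk6 25.8% and 33.8% of the kinases, Cdkn1b 97.7% of its family in WT, and the inhibitors stood at 3.10 and 2.30 times the kinases. Cdkn1a and Ccnd2, with 34 to 106 counts a library, and Cdkn2a are limited by depth.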
